A study of Mus musculus with 9 samples.

Results

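B2m encodes beta-2-microglobulin, the light chain of MHC class I molecules, and is described here in AML12 cells, a mouse hepatocyte line derived from a mouse transgenic for human TGF-alpha. It was found by its gene symbol in each of the 3 deposited tables and is 1 of 10260 gene symbols that the tables list between them. Each table held it as the same 1 curated RefSeq transcript, NM_009735.3, so its summed count is the count of that transcript. The gene was chosen by its measured counts in these libraries, with its levels in all groups already known, so its levels and differences are given as a description, without a p-value.

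RNA sequencing covered 9 libraries in 3 groups of 3. Control cells were left untreated. PA/OA cells were kept for 24 h with the fatty acids PA (0.2 mM) and OA (0.4 mM), abbreviations taken to stand for palmitic acid and oleic acid. Ang(1-7) cells received the renin-angiotensin peptide Ang(1-7) at 100 nM for 30 min before the same fatty acids, and no group received the peptide alone or a carrier alone. All groups were AML12 cells in the same serum-supplemented medium, and the labels do not call the 3 replicates separate cultures. The p-values below therefore rest on replicate spread that may be technical.

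Beta-2-microglobulin has no membrane anchor of its own. It pairs with a heavy chain in the endoplasmic reticulum, where the peptide loading complex fits a peptide into the groove, and heavy chains that lack it mostly fail to reach the cell surface. It also pairs with class I-like proteins such as the iron regulator HFE, the antibody receptor FcRn and MR1. Its gene is active in most nucleated cells and is known to respond to interferons and to NF-kB.

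The promoter of B2m and that of H2-D1, the heavy chain gene with the most reads here, are shown because the counts of these 2 genes moved apart in 1 library. The 250 bases before each start site were taken from RefSeq (GRCm38.p6, both on the plus strand), at chr2:122147437-122147686 for B2m and chr17:35262844-35263093 for H2-D1. Capitals mark matches, on either strand, to the motifs named after them.
B2m: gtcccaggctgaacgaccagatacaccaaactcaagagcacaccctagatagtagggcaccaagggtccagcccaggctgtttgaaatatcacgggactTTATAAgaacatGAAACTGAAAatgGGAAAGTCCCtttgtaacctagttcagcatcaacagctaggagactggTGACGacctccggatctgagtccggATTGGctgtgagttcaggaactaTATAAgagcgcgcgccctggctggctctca
H2-D1: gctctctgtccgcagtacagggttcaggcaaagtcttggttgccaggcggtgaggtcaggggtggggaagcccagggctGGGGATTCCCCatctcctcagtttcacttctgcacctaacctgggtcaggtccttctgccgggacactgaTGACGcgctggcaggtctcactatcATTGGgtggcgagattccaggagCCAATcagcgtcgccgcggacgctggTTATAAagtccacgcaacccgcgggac

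The interferon response motif (GAAA, 2 of any base, GAAA) matched the B2m window from 139 to 130 bases before the start, and 2.98% of 32851 RefSeq windows of the same length hold it. The NF-kB consensus matched B2m on the minus strand 126 to 117 bases before the start and H2-D1 at 2 overlapping places from 171 to 161 bases before it (7.25% of windows). Both windows also held TGACG (17.8% of windows), CCAAT (33.8%) and TATAA (22.8%), and TTATAA holds overlapping TATAA matches on both strands. The gamma-interferon motif TTCNNNGAA (7.02%) matched neither window, and the interferon response motif did not match that of H2-D1. A match describes letters in a window and is not a measured binding site. Only the exact letters were searched, so a window without a match may still hold a variant of the motif.

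The libraries held between 24588312 and 28704499 listed counts, and library Ang(1-7) 2 stood apart from the others. Over the 6033 genes in all 3 tables, its level lay at least 2-fold from the median of the other 8 libraries for 1192 genes, against 87 to 355 genes for the other libraries in turn. Of all these genes, 29.3% were at their highest of the 9 libraries in Ang(1-7) 2 and 31.5% at their lowest. Hepatocyte markers summed to between 21110 and 23950 CPM (counts scaled by each library's listed total) in every library, most of it from the keratin genes Krt8 and Krt18. Of the 8 hepatocyte markers in all tables, 3 were at their highest in Ang(1-7) 2, among them the albumin gene Alb, and 1 at its lowest, the transcription factor gene Hnf4a. In PA/OA against control edgeR called 3 of 8: the apolipoprotein gene Apob (log2 change 1.00, adjusted p = 5.91e-07) and the transferrin gene Trf (0.41, 0.00391) rose, and the transthyretin gene Ttr fell (−1.79, 0.00357). Over all genes tested in that pair, 5.05% were called (2.82% higher, 2.24% lower).

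The 3 controls, in order of replicate number, had 11184, 12328 and 10502 counts of B2m. The PA/OA libraries had 14581, 12186 and 13533, and the Ang(1-7) libraries 13132, 31828 and 15867. Ang(1-7) 2 had the highest count by a wide margin, and the remaining counts lay close together. Scaled over the 9 libraries by the trimmed mean of M values (TMM), the levels were 414, 459 and 402 CPM in controls, 564, 475 and 525 in PA/OA, and 521, 1194 and 589 in Ang(1-7). The 3 controls were the 3 lowest libraries, and the PA/OA levels interleaved with those of Ang(1-7) 1 and 3. Counting error was small beside the gap from Ang(1-7) 2 to the other libraries, with an exact 95% Poisson interval of 1181 to 1207 CPM for Ang(1-7) 2 and of 579 to 598 for Ang(1-7) 3, the next highest, which cover counting error only. It was not small beside the gaps between close neighbours: the intervals of PA/OA 3 (517 to 534 CPM) and Ang(1-7) 1 (512 to 530) overlapped.

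**Figure D1:**
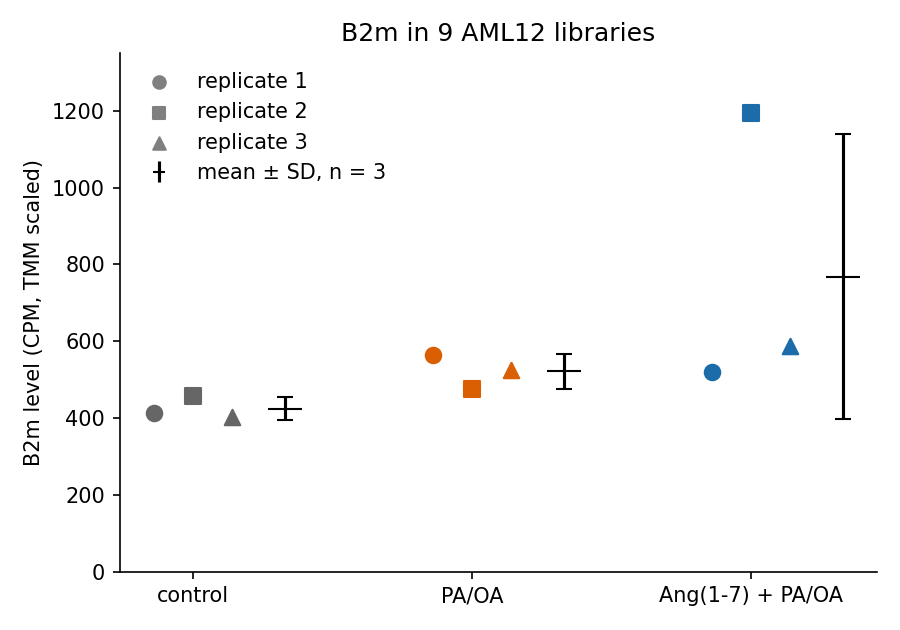
Level of B2m in CPM with TMM scaling (vertical axis) in each library of the control, PA/OA and Ang(1-7) + PA/OA groups, with a symbol for each replicate number and the mean ± SD beside each group. Controls lie at 402 to 459 CPM, PA/OA at 475 to 564, and Ang(1-7) 2 at 1194 stands above all other libraries.

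Group means were 425 ± 30.0 CPM in controls, 522 ± 44.6 in PA/OA and 768 ± 371 in Ang(1-7) (mean ± SD, n = 3 each). Controls were lowest, and the gap from controls to PA/OA exceeded the SD of either group. The gap from PA/OA to Ang(1-7) did not exceed the SD of the Ang(1-7) group. With Ang(1-7) 1 and 3 alone the mean of the peptide group was 555 ± 48.1 CPM (n = 2), a gap to PA/OA smaller than the SD of either group.

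The comparison of PA/OA with control addresses what the fatty acids, with any carrier, do to the cells. B2m was higher in every PA/OA library than in every control, by 0.29 ± 0.08 on the log2 scale (edgeR estimate ± SE), a 1.225-fold difference. Each SE given with a log2 difference is that difference, without its sign, divided by the square root of edgeR's F statistic. For B2m, chosen with its levels known, the SE is part of the description and is not offered as a test. Among 6213 genes tested in this pair, 12.2% had higher levels in every PA/OA library than in every control, and 1238 had a larger log2 difference than B2m, which places its size among those of many genes. Leaving out each library in turn gave log2 differences of 0.23 to 0.36. In the authors' deposited table the log2 difference of this transcript was 0.27.

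The comparison of Ang(1-7) with PA/OA addresses what the peptide adds in fat-loaded cells. The log2 difference of B2m was 0.56 ± 0.28, and the groups overlapped, since Ang(1-7) 1 lay below PA/OA 1 and 3. Without Ang(1-7) 2 it was 0.10 ± 0.09. In this pair 971 of 9261 genes had a larger difference than B2m, and the authors' deposited table gave 0.58. Groups that did not overlap were found for 4.6% of genes with Ang(1-7) higher and for 6.37% with it lower.

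Against control, the Ang(1-7) group had a log2 difference in B2m of 0.84 ± 0.28, a 1.78-fold difference, and its 3 libraries lay above all controls, as in 13.2% of 6134 genes (26.5% did not overlap in either direction). Without Ang(1-7) 2 the difference was 0.38 ± 0.08, and it was 1.04 without Ang(1-7) 1. The authors' deposited table gave 0.83. This comparison shares its controls with that of PA/OA and its Ang(1-7) libraries with that of the peptide, so the 3 differences are not independent.

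In Ang(1-7) 2 itself, B2m was 2.40-fold above the median of the other 8 libraries, 2.29-fold above Ang(1-7) 1 and 2.03-fold above Ang(1-7) 3, the next highest. Of the 6033 genes in all tables, 139 (2.30%) departed upward at least as far in this library and 633 (10.5%) departed downward as far. In the other libraries B2m lay between 0.38 below and 0.24 above the median of the remaining 8 on the log2 scale. Transcripts under 1000 bases, the class of the 860-base B2m transcript, had a median log2 departure of −0.14 in Ang(1-7) 2 (502 curated transcripts). Any part of transcript length in the level of B2m was not tested. In that class 4.98% were at least 2-fold up and 15.9% at least 2-fold down.

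Markers of other cells moved in the same library, and their part in the level of B2m was not tested. In the table of both fatty acid groups, the 3 listed of 11 leukocyte markers (Cd68, Lyz2 and Cd79a) summed to 11.95 CPM in Ang(1-7) 2, to 5.53 and 8.52 in Ang(1-7) 1 and 3, and to 4.46 to 8.37 in PA/OA. Of nervous system markers, 5 of 8 were listed, with sums of 187.5 and 179 CPM in Ang(1-7) 2 and 3 and 126 to 137 in the other 4 libraries. Most of each sum was Mbp, present in all libraries, while the neurofilament gene Nefl had 923 and 477 counts in Ang(1-7) 2 and 3 and 0 in the other 4. The astrocyte gene Gfap had 888 and 378 counts in those libraries, 12 in Ang(1-7) 1 and 0 in PA/OA and controls. DESeq2 called it in both Ang(1-7) pairs (adjusted p = 0.0129 against PA/OA and 0.000461 against control), and edgeR in neither (0.965 and 0.137). Over all genes DESeq2 called 5 and 233 in these pairs. Hemoglobin genes summed to 4.01 and 2.445 CPM in those 2 libraries and to 0 to 0.159 elsewhere. Stellate cell markers, 2 of 6 listed, came to 13.2 and 10.2 CPM in them and to 5.98 to 8.91 elsewhere. The counts of Nefl, Gfap and the hemoglobin genes were lower in Ang(1-7) 3 than in Ang(1-7) 2, and those of Mbp and Cd79a were not. The B2m level of Ang(1-7) 3, 589 CPM, was next to that of PA/OA 1 at 564.

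Heavy chains were the first group of genes set beside B2m. H2-D1, a classical class I heavy chain gene, had 7135, 6383 and 6555 counts in controls, 7602, 7268 and 7218 in PA/OA, and 7561, 4612 and 6722 in Ang(1-7). All PA/OA counts exceeded all control counts, and Ang(1-7) 2, the library with most B2m, had the fewest H2-D1 reads. Scaled levels of H2-D1 were also higher in every PA/OA library than in every control, as in 12.2% of all genes tested. In PA/OA the H2-D1 level was 286 ± 7.13 CPM against 251 ± 13.2 in controls, a log2 difference of 0.19 ± 0.07 that did not pass (adjusted p = 0.163, edgeR quasi-likelihood test with Benjamini-Hochberg adjustment over all genes). Against PA/OA the Ang(1-7) group differed by −0.25 ± 0.18 (adjusted p = 0.965 in edgeR) and against control by −0.07 ± 0.19 (0.883), the latter 0.12 without Ang(1-7) 2. Reads of class I heavy chain genes can be shared with near-identical copies, so how they were split between those genes is uncertain.

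The ratio of B2m to H2-D1 within a library needs no scaling between libraries. It was 1.57, 1.93 and 1.60 reads of B2m per read of H2-D1 in controls and 1.92, 1.68 and 1.875 in PA/OA. It was 1.74, 6.90 and 2.36 in Ang(1-7). Group means were 1.70 ± 0.201, 1.82 ± 0.129 and 3.67 ± 2.82 (mean ± SD, n = 3 each), so controls and PA/OA overlapped, while 2 of the 3 Ang(1-7) libraries lay above every library of the other groups. Without Ang(1-7) 2 the Ang(1-7) mean was 2.05 ± 0.441 (n = 2).

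**Figure D2:**
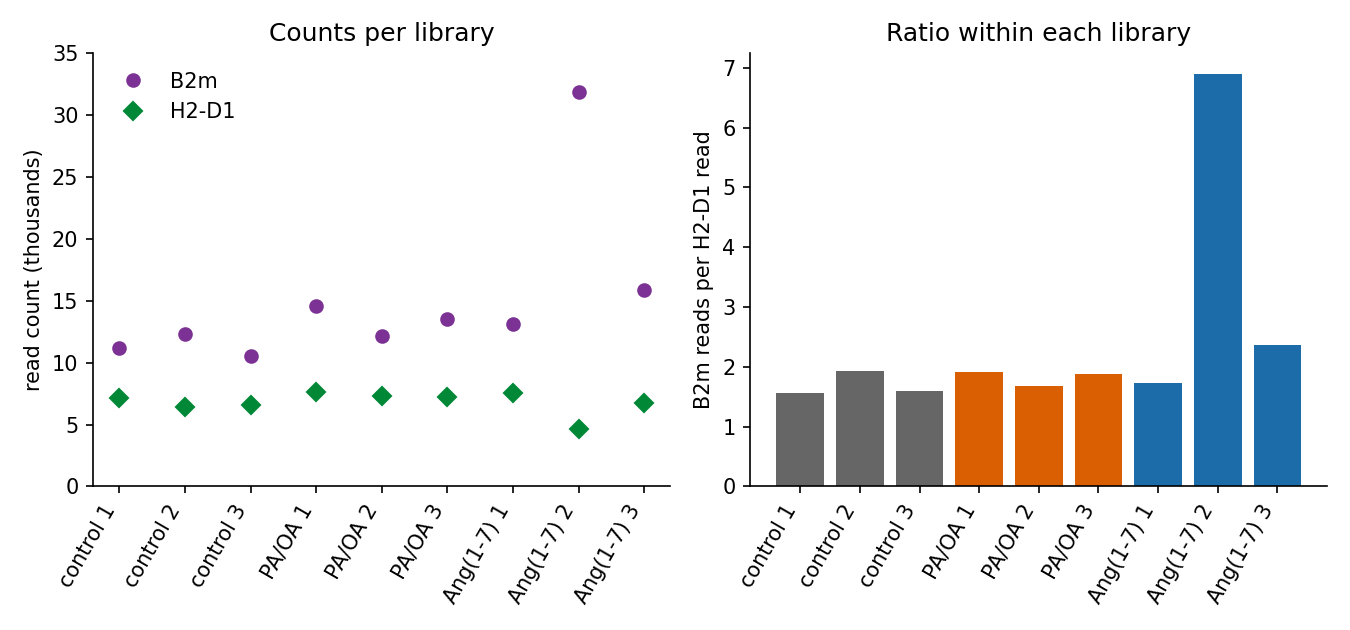
Left, read counts (axis in units of 1000) of B2m (circles) and H2-D1 (diamonds) in each of the 9 libraries. Right, bars of B2m reads per H2-D1 read in the same libraries, coloured by group: 8 libraries lie between 1.57 and 2.36, and Ang(1-7) 2 reaches 6.90.

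Per length of transcript, B2m was the more abundant of the pair. In controls it stood at 494 ± 34.9 CPM per kilobase and H2-D1 at 119 ± 6.26 (mean ± SD, n = 3), with lengths of the matched GENCODE M21 transcripts, 860 and 2102 bases. B2m ranked within the top 3.655% of 5253 transcripts on that scale. Of the genes it works with, Calr, the chaperone calreticulin, was higher at 1440 ± 40.9 CPM per kilobase, and Pdia3, the disulfide isomerase of the loading complex, lower at 154 ± 11.9.

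The other heavy chain genes had few reads. H2-Q4, a nonclassical heavy chain gene, had 564, 633 and 464 counts in controls, 539, 558 and 646 in PA/OA, and 520, 146 and 613 in Ang(1-7). It was thus lowest in the library where B2m was highest, and otherwise overlapped between groups. H2-T23, the mouse gene of the inhibitory ligand Qa-1, had 29 to 135 counts outside Ang(1-7) 2 and 17 in it, and H2-M3, which presents formylated peptides, 79 to 196 and 90. H2-K1, a classical heavy chain listed in the table of both fatty acid groups through 1 predicted transcript, had 17 to 41 counts per library. Of the 4 heavy chain genes in all 3 tables, 3 were at their lowest of 9 libraries in Ang(1-7) 2 and 0 at their highest, where 31.5% and 29.3% of all genes were.

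Peptide loading and antigen processing came next. Pdia3 had a level of 427 ± 33.1 CPM in controls and 512 ± 67.0 in PA/OA in their table, a log2 difference of 0.26 ± 0.08 that did not pass (adjusted p = 0.0800 in edgeR). Calr stood at 3149 ± 89.4 and 3511 ± 250 CPM (log2 difference 0.16 ± 0.05, adjusted p = 0.105 in edgeR). Against control the Ang(1-7) group differed by 0.49 ± 0.11 in Pdia3 (adjusted p = 0.137 in edgeR) and by 0.29 ± 0.10 in Calr (0.235). Both passed without Ang(1-7) 2, at 0.41 (adjusted p = 0.00222 in edgeR) and 0.21 (0.00871). In that fit edgeR called 624 genes in all, against 15 with every library, so these 2 calls are among many. Tapbp, which encodes tapasin and holds heavy chains to the peptide transporter, had 82 to 155 counts per library and did not pass in any pair (lowest adjusted p = 0.849 in edgeR). Canx, the membrane chaperone calnexin, had 1178 to 1632 counts in 8 libraries and 386 in Ang(1-7) 2. Psme1, a subunit of the proteasome activator PA28, had 2184 to 2517 counts in 8 libraries and 3473 in Ang(1-7) 2. The other listed members were Erap1, which trims peptides, and the immunoproteasome subunit Psmb10.

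Counted together, 11 of 35 genes on the lists of heavy chains, other partners, peptide loading and immunoproteasome could be tested for PA/OA against control. In edgeR's test 0 of the 11 rose and 0 fell, where 5.05% of all genes tested were called (2.82% higher, 2.24% lower), and their median log2 difference was 0.16 beside 0.01 over all genes. At an unadjusted p under 0.05 there were 3 (Pdia3, Calr and H2-D1), where 19.4% of all genes passed. DESeq2 called 1, Pdia3 (adjusted p = 0.0480), among 537 genes in the pair. For Ang(1-7) against PA/OA 0 of 13 were called in edgeR (median log2 difference −0.09, beside −0.01 over all genes), 0 had an unadjusted p under 0.05 (2.55% of all genes) and DESeq2 called 0. In that pair edgeR called 0% of 9261 genes, with 236 at an unadjusted p under 0.05, and DESeq2 called 5. For Ang(1-7) against control 0 of 11 were called in edgeR, where 0.245% of all genes were. Their median log2 difference was 0.11, beside 0.02 over all genes. At an unadjusted p under 0.05 there were 2, where 14.9% of all genes passed. DESeq2 called Pdia3 (adjusted p = 0.0262) among 233 genes in the pair. Of the partners outside class I, Hfe had 0 to 17 and Mr1 6 to 47 counts per library in the table of both fatty acid groups, too few to be tested. Tap1, Tap2, Psmb8, Psmb9, Nlrc5 and Fcgrt are not analysed here.

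Receptors and kinases of interferon signalling lie upstream of B2m. Ifngr1, the ligand-binding chain of the interferon-gamma receptor, had 5296, 5452 and 5635 counts in controls. Counts were 6435, 6369 and 7039 under the fatty acids alone and 6700, 8798 and 6595 with the peptide. All treated libraries exceeded all controls, in counts and in scaled levels. Over all genes tested, 12.2% had higher levels in every PA/OA library than in every control, and 13.2% in every Ang(1-7) library. It rose by 0.32 ± 0.08 on the log2 scale in PA/OA (adjusted p = 0.0200 in edgeR), with 205 ± 10.1 CPM in controls and 257 ± 14.2 under the fatty acids. The call was lost without control 1 (adjusted p = 0.116 in edgeR), control 2 (0.0615) or PA/OA 3 (0.1099), and in a fit of all 9 samples (0.383). Against control the Ang(1-7) group differed by 0.44 ± 0.13 (adjusted p = 0.189 in edgeR), which passed without Ang(1-7) 2 (0.31, adjusted p = 0.0242 in edgeR). Without that library edgeR called 624 genes in all, against 15 with it.

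Of the 6 genes of this list tested for PA/OA against control, Ifngr1 rose and 0 fell, where 2.82% of all genes were called higher and 2.24% lower, and all 6 estimates were above 0 (median log2 difference 0.33, beside 0.01 over all genes). Ifngr2, the second chain of that receptor, differed by 0.34 ± 0.10 (adjusted p = 0.0636 in edgeR) and Jak2, a kinase bound to it, by 0.67 ± 0.20 (0.0533). Both, and Ifngr1, had an unadjusted p under 0.05, as did 19.4% of all genes, and DESeq2 called these 3 among 537 genes in the pair. Jak1, a kinase of both interferon receptors, had 438 to 557 counts in 8 libraries and 1061 in Ang(1-7) 2. In that library 4 of the 6 were at their highest of 9, and Ifnar1, a chain of the type I receptor, was at its lowest, where 29.3% and 31.5% of all genes were. In the other 2 pairs 0 of 8 and 0 of 6 were called in edgeR, with 0 and 3 at an unadjusted p under 0.05, the 3 being Ifngr1, Ifngr2 and Jak2 (2.55% and 14.9% of all genes), and DESeq2 called 0 in either. Of all genes, edgeR called 0% and 0.245% in those 2 pairs, and DESeq2 called 5 and 233 genes.

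Interferon-stimulated genes gave few measured members. In PA/OA against control 0 of 5 were called in edgeR, where 5.05% of all genes were, and 0 were among the 537 genes called by DESeq2. In that pair 5 of 5 estimates were above 0 (median log2 difference 0.24, beside 0.01 over all genes). Only Ddx58 had an unadjusted p under 0.05, as did 19.4% of all genes. Ddx58, the RNA sensor RIG-I, had 811 to 1436 counts in 8 libraries and 2833 in Ang(1-7) 2, a 2.25-fold departure close to that of B2m. Bst2, the virus tether tetherin, went the other way, with 1167 to 1765 counts in 8 libraries and 699 in Ang(1-7) 2, as did Ifi35 with 774 to 1252 and 449. Neither of the other pairs had a called member (0 of 9 and 0 of 5 in edgeR, with 0 and 1 at an unadjusted p under 0.05, and 0 by DESeq2). Of all genes, edgeR called 0% and 0.245% there, and 2.55% and 14.9% had an unadjusted p under 0.05. DESeq2 called 5 and 233 genes in all in these pairs.

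Transcription factors of class I genes had 0 of 4, 0 of 12 and 0 of 5 called in edgeR in the 3 pairs, with 0 at an unadjusted p under 0.05 and 0 called by DESeq2 in each. Over all genes, edgeR called 5.05%, 0% and 0.245% in these pairs, and DESeq2 called 537, 5 and 233 genes. The shares of all genes at an unadjusted p under 0.05 were 19.4%, 2.55% and 14.9%. Rela, the p65 subunit of NF-kB, had 217 to 281 counts in controls, 252 to 268 in PA/OA and 271 to 366 in Ang(1-7) in the tables that hold the controls. Irf1, an interferon-induced activator of class I genes, was listed in the table of both fatty acid groups with 61 to 119 counts and a log2 difference of 0.12 ± 0.44. MHC class II genes, which do not pair with B2m, had 0 of 2 called in edgeR in each pair, with 0 at an unadjusted p under 0.05 and 0 called by DESeq2. The same shares over all genes stand beside these counts.

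**Figure D3:**
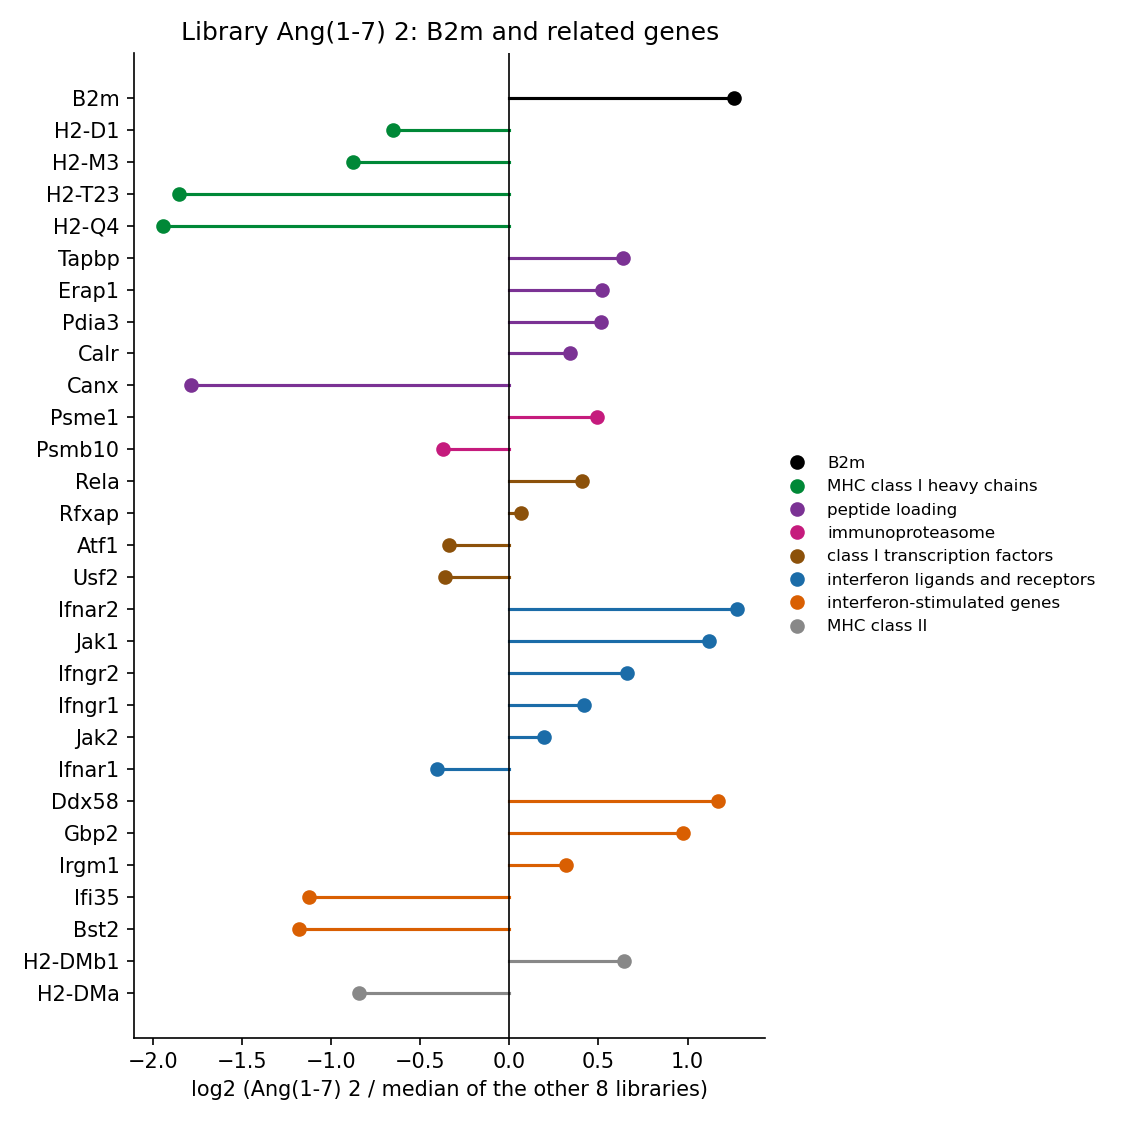
Log2 ratio of the level in library Ang(1-7) 2 to the median of the other 8 libraries (horizontal axis) for B2m and the members of 7 gene lists present in all tables, coloured by list. B2m lies at 1.26, heavy chain genes between −1.95 (H2-Q4) and −0.65 (H2-D1), and the interferon and peptide loading genes on both sides of 0.

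The genes whose pattern came closest to B2m were ranked by the root mean square difference of log2 levels over the 9 libraries, each gene centred on its own mean, among 5798 genes. Car13, a cytosolic carbonic anhydrase, was nearest with a difference of 0.13. Sav1, a scaffold of the Hippo pathway (0.14), Zfp712, a zinc finger gene, Ube2r2, a ubiquitin-conjugating enzyme, Ggh, a folate hydrolase, and the kinase gene Stk25 (0.15 each) followed, where the median gene differed by 0.53. All 6 had their highest level in Ang(1-7) 2, which for Car13 was 197 CPM against 82.9 to 127 in the other libraries and for Sav1 310 against 129 to 177. The 6 were chosen for following B2m over these libraries, so no test of their group differences is given.

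Over the 8 libraries without Ang(1-7) 2 a different set came nearest, and Car13 was the only gene in both sets of 6. Cdc42ep1, an effector of the GTPase CDC42, was then first with a difference of 0.05, followed by the heme transporter gene Slc48a1 and by Arl6ip5 (0.06 and 0.07), where the median gene differed by 0.30. Cdc42ep1 had 167 to 200 CPM in controls, 212 to 247 in PA/OA, and 234 and 257 in Ang(1-7) 1 and 3. In Ang(1-7) 2 it had 240 CPM, within the range of the treated libraries, and Slc48a1 had 90.3, below all others. These genes were chosen for their likeness, so the values are a description.

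**Figure D4:**
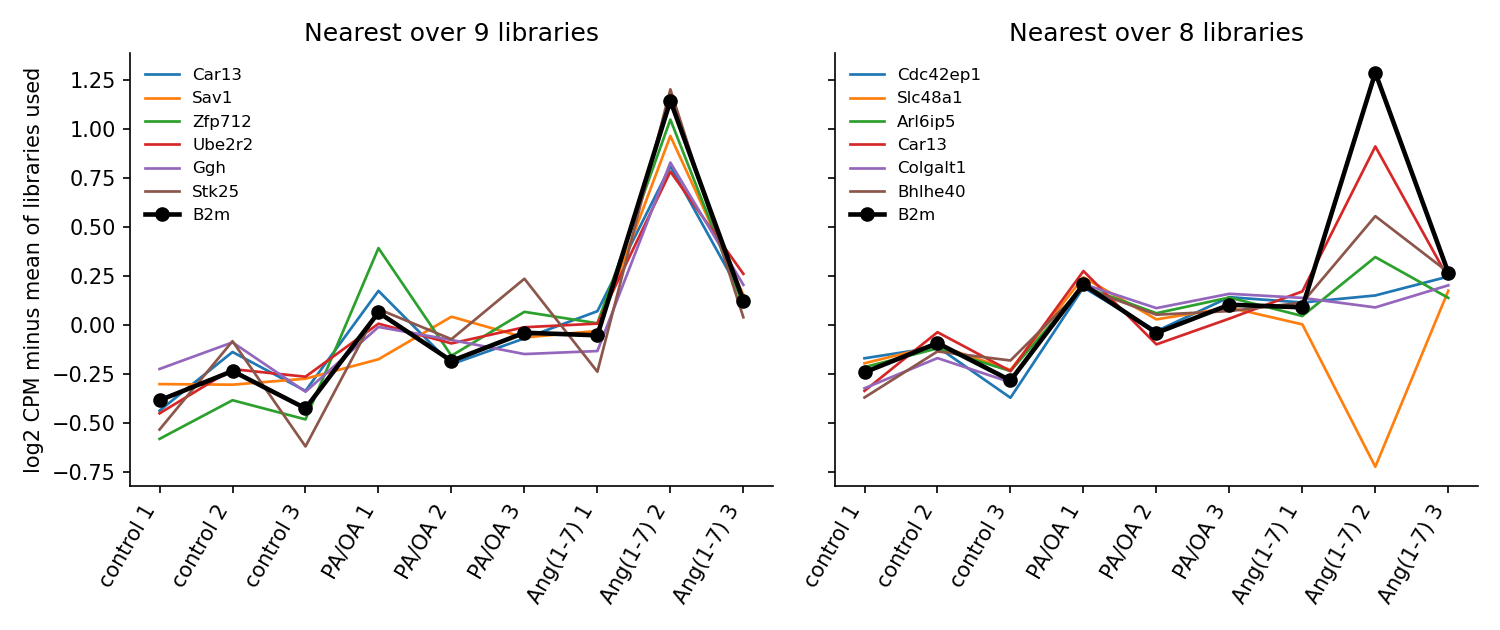
Log2 CPM of B2m (black) and of the 6 genes nearest to it, each minus its mean over the libraries used, in the 9 libraries; nearest over all libraries on the left, and without Ang(1-7) 2 on the right. On the left all 6 lines peak at Ang(1-7) 2, and on the right Car13 rises furthest of the 6 there, while Slc48a1 lies below its mean.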

How the data were processed

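Read counts for RefSeq transcripts were deposited by the authors in 3 tables, each holding a pair of groups. The submitters' processing notes name bcl2fastq, HISAT2 2.2.5 and HTSeq 0.11.2. A human build is named there although the transcripts are mouse, and neither strand nor counting mode is stated in the sources used here. A transcript had the same count for a sample in every table that lists it. The tables list different transcripts, so a count summed per gene can differ between them. Rela in PA/OA 1, for example, had 268 counts in the table with controls and 293 in that of both fatty acid groups. The authors' deposited log2 fold changes were used for B2m alone, and their deposited p-values were not used.

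Counts were summed per gene symbol. Each pair was fitted in its own table with edgeR 4.0.16 in R 4.3.3 (TMM, filterByExpr, quasi-likelihood test), with Benjamini-Hochberg adjustment over all genes and a threshold of 0.05. The fit was tested on simulated data. DESeq2 1.42.0 and the other alternatives are in the closing section. Levels across 9 libraries used the 6033 genes in all tables, and likeness used log2 CPM with a prior count of 2 and a mean of at least 50 counts. Lengths came from GENCODE M21 for 99.4% of 5286 curated transcripts. Samples of a group differed by more than counting noise (chi-square per degree of freedom 19.7 to 254).

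The gene and the lists were chosen with earlier results of these data known. Named genes were B2m, called members of its pathway lists, a fixed set of class I genes and the 6 genes most like B2m; others are named by list membership or after their values were seen.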

Additional observations from a re-analysis of the deposited data

How the results depend on the processing

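B2m kept its direction in all 3 pairs under every alternative run, with log2 differences over the libraries left out of 0.23 to 0.36 for PA/OA against control, 0.10 to 0.78 for Ang(1-7) against PA/OA and 0.38 to 1.04 for Ang(1-7) against control, the lowest of the last 2 without Ang(1-7) 2. The replicate number as a block gave 0.29, 0.45 and 0.74, and called 303, 0 and 10 genes; the numbers did not pair the samples (correlations of deviations −0.10 to 0.05). The genes called in edgeR were 314, 0 and 15, and ranged over libraries left out from 99 to 397 (99 without control 1, 200 without control 3, 147 without PA/OA 2, 134 without PA/OA 3), from 0 to 18 (18 without Ang(1-7) 1) and from 4 to 624 (624 without Ang(1-7) 2, 32 without Ang(1-7) 1, 7 without Ang(1-7) 3 and 4 without each control). DESeq2 called 537, 5 and 233, and a fit of all 9 samples 33 and 100 in the pairs with controls; the cause was not tested. With library totals only, 238 of 328 genes called in PA/OA against control were higher, against 175 of 314. Antigen presentation genes called ranged from 0 to 1, 0 to 0 and 0 to 2 over libraries left out (Pdia3 without PA/OA 1 and Calr without PA/OA 2 in the first pair, both without Ang(1-7) 2 in the last). In PA/OA against control 1 was called with library totals only (Calr) and 1 with DESeq2 or the block (Pdia3, adjusted p = 0.04745 with the block), and 1 in Ang(1-7) against control with DESeq2. Genes nearest to B2m were 6 of 6 the same with library totals, since scaling cancels in this measure, and 1 of 6 without Ang(1-7) 2. Uncalled values that turned sign when a library was left out ranged, on the log2 scale, from −0.78 to 0.27 for H2-T23 in PA/OA against control. In Ang(1-7) against PA/OA they ranged from −0.53 to 0.11 for H2-K1, −0.17 to 0.32 for Irf1 and −0.41 to 0.0845 for Tapbp. In Ang(1-7) against control they ranged from −0.28 to 0.12 for H2-D1 and −0.21 to 0.29 for Tapbp. Of the genes most like B2m, described without a test, Zfp712 and Stk25 also turned sign in Ang(1-7) against PA/OA. Their log2 differences ranged from −0.0542 to 0.54 and from −0.17 to 0.65. The ratio of B2m to H2-D1 was the same with curated transcripts only. Genes with under 50 counts per library carry large counting error.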
